A study of Mus musculus with 19 samples.

Results

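Solute carriers are membrane proteins that move amino acids, sugars, nucleosides, metals, other ions and vitamins into or out of cells and their organelles. The 180 genes described here were chosen by their level. They are the protein-coding *Slc* genes whose mean over all 19 libraries was at least 10 CPM, a count divided by its library's total and scaled. From these, 10 carriers that reached this level were left out by name. All CPM of this paragraph and all means over every library are in this unit. In CPM of mice and groups further below, the total is that of the genes tested, multiplied by a factor (TMM) that evens out libraries. The count table holds 377 protein-coding *Slc* genes, 364 of them with at least 1 count, and 190 reached the level before the 10 were left out. The last genes above the level were *Slc25a26* at 10.3, *Slc49a3* at 10.1 and *Slc22a23* at 10.1 CPM, and the first below it were *Slc24a4* at 9.75, *Slc17a9* at 9.66 and *Slc25a18* at 9.52 CPM. The level was the mean of both treatments, so a gene that is high in only 1 of them could also enter: 158 of the 180 reached 10 CPM in each group mean, 10 stayed below it in both LPS groups, 6 in both PBS groups and the remainder in other combinations. A pair of the genes carry an *Slc* symbol without being carriers, *Slc7a6os*, which lies beside *Slc7a6*, and *Slc4a1ap*, an adaptor protein. Both were kept because the symbol was the rule.

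In the brain, microglia are the resident macrophages. Carriers set which fuels and building blocks such cells can take up, for example glutamine, large neutral amino acids, glucose or fructose, and those of the lysosome release what the cell has digested. LPS (lipopolysaccharide from bacterial walls) activates macrophages through a Toll-like receptor, and activated macrophages are known for a high use of glucose and amino acids and for holding back metals from bacteria.

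The cells came from brains of male mice aged 3 to 4 months, without olfactory bulb and cerebellum, and were enriched on magnetic beads against CD11b, a surface protein of microglia that monocytes, neutrophils and other brain macrophages also carry. *PARK7*/DJ-1 KO mice carry a gene-trap insertion in *Park7* in every cell (the allele *Park7* Gt(XE726)Byg), crossed back to C57BL/6NCrl, and wildtype mice were their littermates. Each mouse received saline (PBS) or 4 µg LPS per g body weight (*E. coli* O55:B5) into the peritoneum 6 h before the brain was taken. The groups were wildtype with PBS (n = 4 mice), KO with PBS (n = 5), wildtype with LPS (n = 5) and KO with LPS (n = 5), with 1 library per mouse.

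Library totals ranged from 11936364 to 22788884 counts, and the 180 genes had at least 2 counts in every library. *Park7* itself had 262 to 533 counts in wildtype and 9 to 90 in KO libraries. The microglia markers *P2ry12*, *Tmem119*, *Cx3cr1*, *Csf1r*, *Sall1*, *Gpr34* and *Olfml3* were present, and all 7 were lower after LPS in both genotypes. The 4 monocyte markers rose, from a median of 29.1 and 26.3 CPM to 223 and 124 CPM. Of 6 neutrophil markers 2 were called higher in each genotype and 1 lower in KO mice (median sum 60.8 to 182 CPM in wildtype and 56.8 to 199 CPM in KO mice), and 3 of 5 markers of border-associated macrophages were called lower in each. Markers of cells without CD11b varied between mice within every group. The choroid plexus and ependyma sum (*Ttr*, *Folr1*, *Foxj1*) ran from 197 to 14407 CPM, the astrocyte sum of 6 genes from 419 to 4857 CPM and the oligodendrocyte sum of 5 genes from 515 to 11235 CPM. KO mouse 5 with LPS was lowest for choroid plexus and astrocyte markers, and KO mouse 1 with LPS was highest for astrocyte and oligodendrocyte markers. Where a level per mouse differs in such bulk libraries, fewer cells of a type and less RNA per cell cannot be told apart.

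The first question was which carriers the cells contained and how much of each. Together the 180 genes held 14601 ± 401 CPM (SD, n = 4) in wildtype mice with PBS, 14874 ± 340.2 (n = 5) in KO mice with PBS, 15438 ± 230.0 (n = 5) in wildtype mice with LPS and 15903 ± 1081 (n = 5) in KO mice with LPS. The median gene had 49.1 CPM over all libraries, and 41 genes reached 100 CPM. By number the largest classes were amino acid carriers (30 genes) and mitochondrial carriers (30), then carriers of ions and acid or base (27), of metals (22), of peptides, vitamins and organic ions (21), of nucleotide sugars and acetyl-CoA (19), of sugars and polyols (13), of carboxylates (10), of nucleosides (4) and of lipids and choline (4). The 10 genes of highest level in CPM were *Slc15a3*, *Slc38a2*, *Slc3a2*, *Slc6a6*, *Slc12a2*, *Slc39a14*, *Slc7a5*, *Slc25a5*, *Slc23a2* and *Slc7a8*.

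Levels of different genes were compared per kilobase of exon. *Slc25a5*, which exchanges ADP and ATP across the inner mitochondrial membrane, was highest in every group, with 139 CPM per kb in wildtype mice with PBS and 202 after LPS. It has many near-identical copies in the genome, so its count depends on how shared reads were treated. With PBS the next was *Slc2a5*, the fructose carrier, at 124 CPM per kb in wildtype and 112 in KO mice, followed by *Slc3a2*, the heavy chain that several amino acid carriers need to reach the membrane, at 69.2 and 64.7. After LPS the order changed. *Slc2a5* stood at rank 86 of 180 in wildtype and 55 in KO mice, and *Slc15a3* and *Slc7a5* were at ranks 2 and 3 in both genotypes. *Slc39a14* went from rank 141 and 142 with PBS to rank 7 in both genotypes.

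LPS against PBS was tested in each genotype. A gene was called where its adjusted p-value, over all 18739 genes tested, was below 0.05 and its |log2FC| reached 0.5. In wildtype mice 44 of the 180 carriers (24.4%) were higher after LPS, beside 18.4% of all genes tested and 25.2% of the 9434 protein-coding genes of at least 10 CPM. Lower after LPS were 35 carriers (19.4%), beside 17.4% of all genes and 19% of those protein-coding genes. In KO mice 46 carriers (25.6%) were higher, beside 20.1% of all genes and 25.9% of the protein-coding genes of at least 10 CPM, and 36 (20%) were lower, beside 19% and 20.4%. These shares lie close to those of protein-coding genes of the same minimum level, so the counts alone say nothing particular about carriers. Their median log2FC was -0.03 in wildtype and -0.02 in KO mice, beside -0.06 and -0.01 over all genes.

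Of the carriers, 42 were higher and 31 lower in both genotypes, 15 were called in only 1 genotype with the same sign in both, and none was higher in one genotype and lower in the other. The remaining 92 were called in neither. For 26 of these the 95% intervals of both log2FC values lay within 0.5 of 0, and for the others a change of that size was not excluded by the interval. Both comparisons rest on different mice, and their values stand side by side in the plot of both genotypes.

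**Figure D1:**
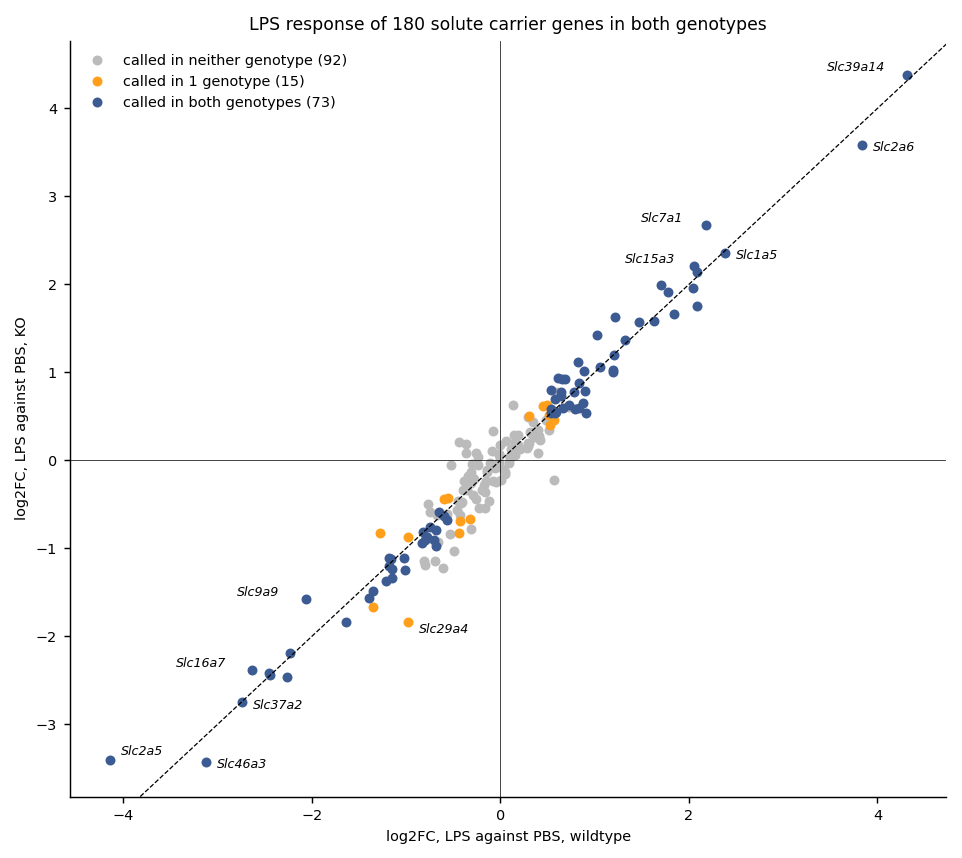
Log2FC of LPS against PBS in wildtype (x axis) and KO mice (y axis) for 180 solute carrier genes, 1 point per gene, coloured by whether it was called in both genotypes (73), in 1 (15) or in neither (92), with the dashed line where both are equal. *Slc39a14* and *Slc2a6* lie farthest up and *Slc2a5* and *Slc46a3* farthest down in both genotypes.

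Promoters of carriers with the largest rises and falls are shown so that their sequence can be read beside the change. They were taken from RefSeq on GRCm38.p6, an earlier build than the GRCm39 of the gene positions below, from 250 bases before to 50 after the start of the transcript, and for *Slc7a1*, which has more than 1 entry, the first was used. *Slc39a14*, *Slc1a5* and *Slc15a3* had no entry, and the next genes in order were taken. Capitals mark matches, on either strand, to the metal response letters TGCNCNC.
*Slc2a6* (rise, chr2:27027949-27028248, - strand): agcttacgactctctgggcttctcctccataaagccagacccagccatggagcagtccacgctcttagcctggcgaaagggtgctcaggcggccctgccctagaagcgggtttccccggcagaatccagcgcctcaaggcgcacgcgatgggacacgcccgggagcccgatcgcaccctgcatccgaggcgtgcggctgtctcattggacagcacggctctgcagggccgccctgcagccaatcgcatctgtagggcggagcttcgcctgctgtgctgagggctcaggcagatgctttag
*Slc7a1* (rise, chr5:148399855-148400154, - strand): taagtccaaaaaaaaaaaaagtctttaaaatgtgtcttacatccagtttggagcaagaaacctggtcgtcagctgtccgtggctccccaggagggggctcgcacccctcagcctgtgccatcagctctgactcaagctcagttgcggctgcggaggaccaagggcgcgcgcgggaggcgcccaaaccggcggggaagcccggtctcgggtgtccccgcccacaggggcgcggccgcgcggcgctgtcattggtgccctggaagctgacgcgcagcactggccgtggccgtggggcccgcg
*Slc29a2* (rise, chr19:5023756-5024055, + strand): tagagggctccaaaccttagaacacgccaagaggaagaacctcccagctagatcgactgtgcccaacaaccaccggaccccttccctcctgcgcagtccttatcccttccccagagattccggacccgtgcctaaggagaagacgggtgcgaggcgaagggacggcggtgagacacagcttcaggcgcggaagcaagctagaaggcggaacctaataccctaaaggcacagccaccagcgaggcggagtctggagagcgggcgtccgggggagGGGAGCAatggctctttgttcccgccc
*Slc2a5* (fall, chr4:150119094-150119393, + strand): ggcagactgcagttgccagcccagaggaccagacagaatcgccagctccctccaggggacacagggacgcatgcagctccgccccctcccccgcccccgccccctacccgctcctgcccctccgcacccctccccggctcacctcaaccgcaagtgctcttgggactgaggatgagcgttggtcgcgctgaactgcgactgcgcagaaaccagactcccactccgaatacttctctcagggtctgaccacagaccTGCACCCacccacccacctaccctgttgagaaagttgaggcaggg
*Slc46a3* (fall, chr5:147894766-147895065, - strand): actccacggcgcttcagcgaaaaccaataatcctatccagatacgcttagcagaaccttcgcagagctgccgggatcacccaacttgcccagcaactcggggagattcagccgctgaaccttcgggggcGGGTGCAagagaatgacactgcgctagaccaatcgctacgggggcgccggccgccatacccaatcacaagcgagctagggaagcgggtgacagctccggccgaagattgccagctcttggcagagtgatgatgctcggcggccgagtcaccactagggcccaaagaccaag
*Slc37a2* (fall, chr9:37255689-37255988, - strand): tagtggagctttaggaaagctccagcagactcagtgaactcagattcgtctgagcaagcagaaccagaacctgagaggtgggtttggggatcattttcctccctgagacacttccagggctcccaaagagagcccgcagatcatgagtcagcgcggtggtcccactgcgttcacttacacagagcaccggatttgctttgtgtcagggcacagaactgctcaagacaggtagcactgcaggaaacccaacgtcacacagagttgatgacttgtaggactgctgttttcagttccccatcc

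None of the 6 held the kappaB letters GGANNTTCC, the interferon response letters GAAANNGAA or the amino acid response letters TGATGNAA. Of the 180 carriers 141 had a promoter entry. The kappaB letters were in 4 of these (2.84%), beside 4.24% of all 27025 promoters of the same length, the interferon letters in 7 (4.96%, beside 8.57%), the amino acid letters in 5 (3.55%, beside 4.06%) and the metal letters in 87 (61.7%, beside 50.4%). Among the carriers higher in both genotypes, 30 had an entry, and 2 of them held the kappaB letters, 1 the interferon letters, 1 the amino acid letters and 17 the metal letters. Among those lower in both, 27 had an entry, and the counts were 0, 2, 1 and 15. A match is a description of these letters and no site, and the windows do not cover introns or distant elements. The 30 bases around the matches of called carriers, other than those to the metal letters, are shown with the match in capitals, in the order of the change.
*Slc1a4* (rise, amino acid response, chr11:20332699-20332728, - strand, GRCm38.p6): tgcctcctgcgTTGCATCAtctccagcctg
*Slc31a1* (rise, kappaB, chr4:62360451-62360480, + strand, GRCm38.p6): ggaggaagttGGATGTTCCcagggcctgtc
*Slc35f6* (rise, interferon response, chr5:30647766-30647795, + strand, GRCm38.p6): actacaaaaaGAAAAGGAAgccgagcaatg
*Slc19a2* (rise, kappaB, chr1:164248876-164248905, + strand, GRCm38.p6): ttggcgaggaGGAGGTTCCcgggggcgtgg
*Slc9a9* (fall, amino acid response, chr9:94669812-94669841, + strand, GRCm38.p6): agaatcttttaTGATGAAAccaccctctgg
*Slc38a9* (fall, interferon response, chr13:112660516-112660545, + strand, GRCm38.p6): tctcTTCTTTTTCtctcttcctaggtagtt
*Slc7a8* (fall, interferon response, chr14:54781938-54781967, - strand, GRCm38.p6): cgccgcagccGAAAGGGAAgcacattcgcg

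The largest rise was that of *Slc39a14* (ENSMUSG00000022094; chr14:70540678-70588914, - strand, GRCm39), which imports zinc, iron and manganese. Its level was 35.6, 39.2, 34.6 and 37.7 CPM in the 4 wildtype and 32.9, 35.1, 34.6, 44.6 and 42.6 CPM in the 5 KO mice with PBS. After LPS it was 467, 537, 728, 879.7 and 1032 CPM in wildtype and 626, 740.4, 772, 722 and 1089 CPM in KO mice. The groups were far apart in both genotypes, with the lowest LPS mouse over 10 times the highest PBS mouse. For this gene and the other largest changes, chosen by their size, a lack of overlap is a description and no separate support. The change was 19.8-fold in wildtype (log2FC 4.31, SE 0.24, adjusted p-value 3.3e-10) and 20.8-fold in KO mice (log2FC 4.38, SE 0.21, adjusted p-value 5.4e-11).

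*Slc2a6* (ENSMUSG00000036067; chr2:26911226-26918092, - strand, GRCm39), a hexose carrier of the lysosome membrane, was low with PBS, at 2.71, 3.82, 4.01 and 3.17 CPM in wildtype and 3.25, 2.96, 4.17, 4.09 and 4.11 CPM in KO mice. With LPS the wildtype mice had 29.7, 27.4, 37.6, 63.3 and 86.3 CPM and the KO mice 28.8, 33, 50.1, 47.9 and 62.4 CPM. No LPS mouse overlapped with a PBS mouse, and wildtype mice 4 and 5 with LPS were higher than the rest of their group. The log2FC was 3.83 (SE 0.34) in wildtype and 3.58 (SE 0.31) in KO mice, with adjusted p-values of 6.2e-08 and 2.7e-08.

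Several of the 12 largest rises were those of amino acid carriers of the cell surface. *Slc7a1* (chr5:148264220-148336848, - strand, GRCm39), which takes up arginine and lysine, had 76.8, 99.4, 66.1 and 77.8 CPM in wildtype and 106, 71.4, 68.8, 50 and 63.6 CPM in KO mice with PBS. After LPS it had 301, 348, 439, 365 and 359 CPM in wildtype and 341, 401, 608, 337 and 605 CPM in KO mice, with no overlap (4.53-fold and 6.38-fold, adjusted p-values 3.4e-07 and 9.2e-09). *Slc1a5* (chr7:16515265-16532731, + strand, GRCm39), a glutamine carrier, rose from 8.25 ± 1.27 CPM (SD, n = 4) to 43 ± 3.81 CPM (n = 5) in wildtype and from 8.5 ± 1.55 to 43.4 ± 17.6 CPM (n = 5 each) in KO mice. KO mice with LPS spread more widely, from 25.7 to 71.1 CPM, than wildtype mice, from 37.8 to 46.9 CPM, and no LPS mouse overlapped with a PBS mouse (log2FC 2.38 and 2.35, adjusted p-values 2.0e-07 and 5.7e-08).

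*Slc7a5* (chr8:122607884-122634433, - strand, GRCm39) carries large neutral amino acids and works as a pair with *Slc3a2*. It had 150.1, 263, 142 and 181 CPM in wildtype and 238, 151, 130.5, 121 and 109 CPM in KO mice with PBS, against 672, 663, 678, 547 and 427 CPM and 554, 676, 469, 491 and 803 CPM after LPS. Every LPS mouse was above every PBS mouse (log2FC 1.70, SE 0.25, in wildtype and 2.00, SE 0.23, in KO mice, adjusted p-values 1.6e-05 and 8.7e-07). *Slc7a6*, which also needs *Slc3a2*, rose 3.43-fold and 3.78-fold, and *Slc3a2* itself 1.79-fold and 1.84-fold. The neighbouring *Slc7a6os* rose by log2FC 0.62 and 0.94. In CPM per kb after LPS, *Slc7a5* (156 in wildtype and 156 in KO mice) stood above *Slc3a2* (124 and 119), whereas with PBS it stood below it.

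Cells short of amino acids are known to raise a group of such carriers, and 8 of these were listed, 7 of them among the 180. In wildtype mice 6 of the 8 were higher after LPS and none lower, with a median log2FC of 0.93. In KO mice the same 6 were higher and none lower, with a median of 1.27. Of all genes tested 18.4% were higher in wildtype and 20.1% in KO mice, and of protein-coding genes of at least 10 CPM 25.2% and 25.9%, and the medians over all genes were -0.06 and -0.01. Beside those above these were *Slc1a4*, which carries alanine, serine and cysteine (log2FC 1.02 and 1.42), and *Slc38a2*, an uptake carrier of small neutral amino acids (0.82 and 1.12). The others were *Slc6a9*, the glycine carrier (-0.25 and 0.09, adjusted p-values 0.73 and 0.91), and *Slc7a3*, which had a mean of 0.796 CPM and is no member. The list was written with earlier results of these data known.

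*Slc15a3* (ENSMUSG00000024737; chr19:10817091-10836726, + strand, GRCm39) carries histidine and short peptides, bacterial ones included, across the lysosome membrane. Its level was 233, 172, 221 and 219.9 CPM in wildtype and 191, 197, 198, 223 and 244 CPM in KO mice with PBS. After LPS it was 813, 634, 946, 969 and 1029.8 CPM in wildtype and 686, 913, 1022, 773 and 1473 CPM in KO mice, 4.15-fold and 4.62-fold higher (adjusted p-values 1.6e-07 and 1.8e-08). The groups did not overlap. Part of its exons lie opposite exons of *Tmem132a*, and the strand setting of the counting is not given in the sources used here, so whether reads of the 2 genes were separated is unknown. Among the other carriers of largest change, *Slc2a6*, *Slc31a2*, *Slc46a3* and *Slc46a1* also have exons opposite those of another gene.

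Among the other large rises, *Slc29a2*, a nucleoside carrier, rose 4.23-fold in wildtype and 4.41-fold in KO mice from about 4.78 ± 0.971 CPM (SD, n = 4), and *Slc25a22*, the mitochondrial glutamate carrier, 4.11-fold and 3.9-fold from 18.3 ± 1.41 CPM (n = 4). *Slc31a2*, a copper carrier of inner membranes, rose 3.59-fold and 3.17-fold, and *Slc2a3*, a glucose carrier of high affinity, 3.11-fold and 3.0-fold. For these 4 genes no LPS mouse overlapped with a PBS mouse of its genotype. *Slc41a2*, a magnesium carrier, had 5.78, 25.1, 16.3, 22.2 and 19.5 CPM in wildtype and 20.8, 13.7, 13.9, 34.9 and 3.83 CPM in KO mice with LPS, against 1.3, 6.36, 3.09 and 5.96 and 5.4, 3.0, 5.64, 4.66 and 7.08 CPM with PBS. Here the groups overlapped. Wildtype mouse 1 and KO mouse 5 lay lowest among the LPS mice, and they also had the lowest choroid plexus markers of their groups (1330 and 197 CPM).

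**Figure D2:**
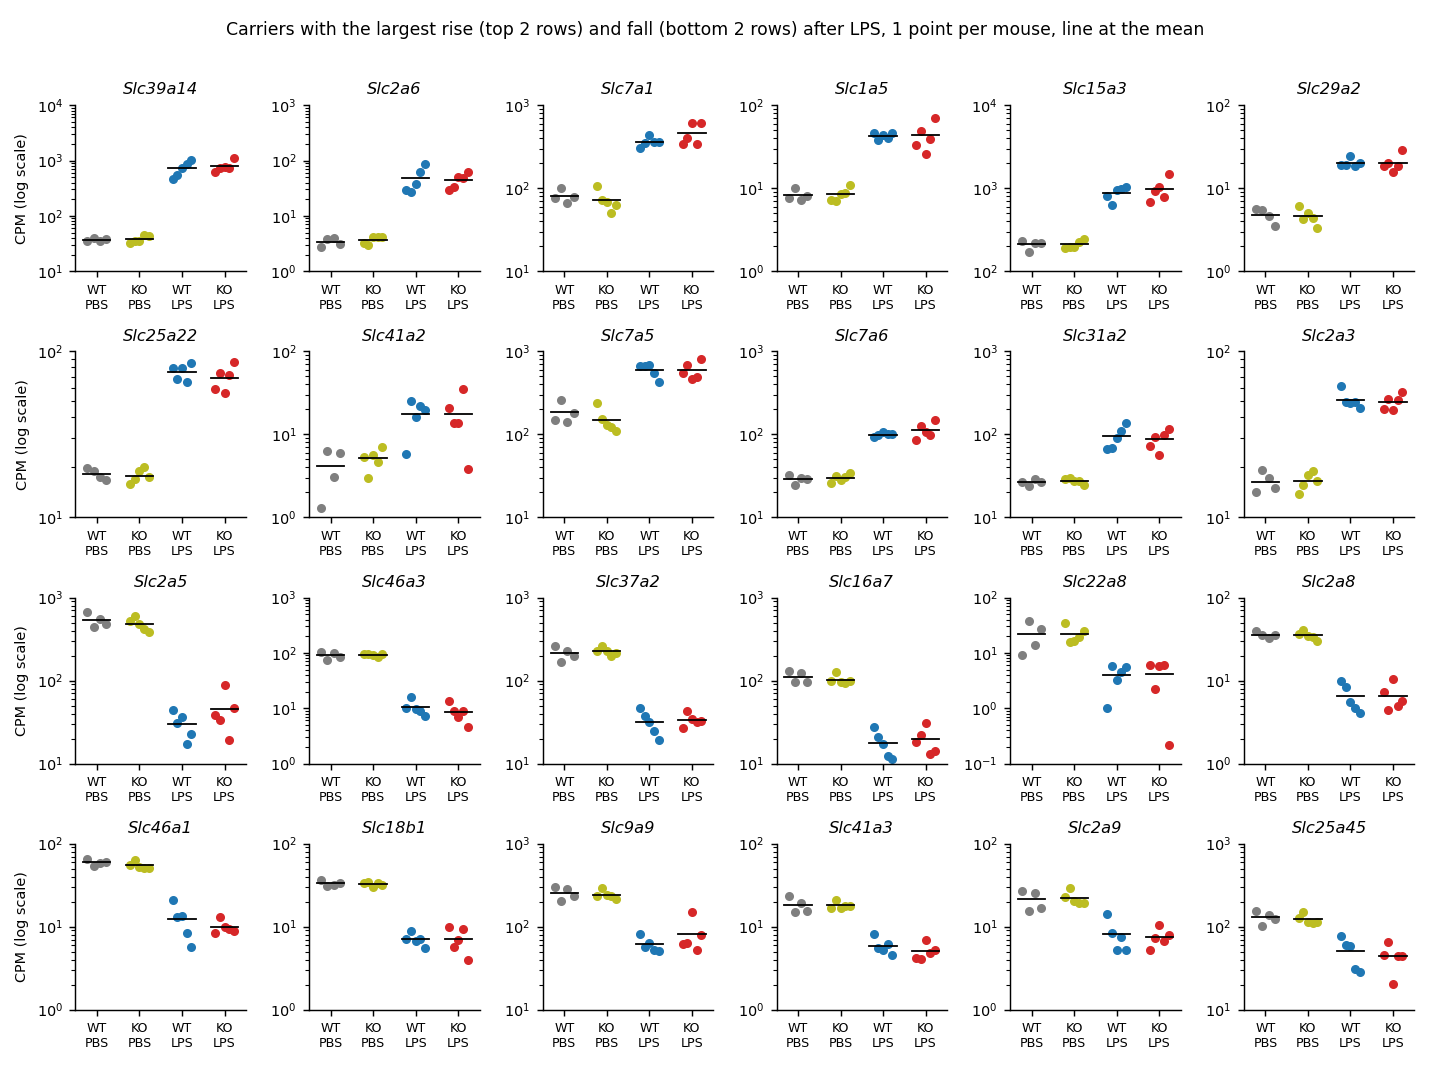
CPM on a log axis of the 12 carriers with the largest rise (top rows) and the 12 with the largest fall (bottom rows) after LPS, among those called in both genotypes, 1 point per mouse in 4 groups with a line at the mean. LPS and PBS mice are apart in every panel but that of *Slc41a2*. The genes were chosen for large called changes, which favours such separation, so it is no separate support.

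The largest fall was that of *Slc2a5* (ENSMUSG00000028976; chr4:150196268-150228931, + strand, GRCm39), the fructose carrier, known as a gene of microglia within the brain. It had 660.2, 445, 552 and 481 CPM in wildtype and 528, 603, 485, 412 and 380.4 CPM in KO mice with PBS. After LPS it had 44.3, 31, 36.3, 17 and 22.4 CPM in wildtype and 37.9, 33.7, 89.4, 19.4 and 46.8 CPM in KO mice. The highest LPS mouse, KO mouse 3 at 89.4 CPM, was still far below the lowest PBS mouse at 380.4 CPM. The change was 17.7-fold lower in wildtype (log2FC -4.14, SE 0.35, adjusted p-value 3.4e-08) and 10.6-fold lower in KO mice (log2FC -3.41, SE 0.33, adjusted p-value 1.3e-07). The 7 microglia markers named above fell in the same comparison, and their part in this fall was not tested.

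*Slc46a3* (chr5:147814297-147831666, - strand, GRCm39), a carrier of the lysosome membrane, fell from 106, 73.2, 97.6 and 83.6 CPM in wildtype and 95, 96.1, 90.2, 85.4 and 93.8 CPM in KO mice to 9.9, 15.8, 9.64, 8.84 and 7.25 CPM and 13.4, 9.03, 6.82, 8.78 and 4.55 CPM, 8.73-fold and 10.8-fold lower (adjusted p-values 1.2e-08 and 2.2e-09). The only related member, *Slc46a1*, which takes up folate, fell 4.8-fold and 5.48-fold. *Slc37a2* (chr9:37138881-37167112, - strand, GRCm39), which exchanges sugar phosphates at the endoplasmic reticulum and is known from macrophages, had 257, 169, 228 and 197 CPM in wildtype and 226, 260.1, 228, 198 and 217 CPM in KO mice with PBS. With LPS these were 46, 37.8, 31.4, 24.8 and 19.4 CPM and 26.8, 43.3, 34, 31.5 and 32.8 CPM. It fell 6.67-fold in wildtype and 6.7-fold in KO mice (SE of log2FC 0.20 and 0.20, adjusted p-values 7.5e-09 and 2.9e-09).

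*Slc16a7*, a carrier of lactate and pyruvate with high affinity, went from 111 ± 17.7 CPM (SD, n = 4) to 17.8 ± 6.59 CPM (n = 5) in wildtype and from 102 ± 13.8 to 19.6 ± 7.23 CPM (n = 5 each) in KO mice. *Slc2a8*, a sugar carrier of inner membranes, fell 5.48-fold and 5.35-fold, and *Slc2a9*, a urate carrier of the same family, 2.63-fold and 2.96-fold. *Slc18b1*, a polyamine carrier of vesicles, was 4.7-fold and 4.55-fold lower, *Slc41a3*, a magnesium carrier, 3.11-fold and 3.57-fold, and *Slc25a45*, of the mitochondrial family, 2.55-fold and 2.8-fold. None of these had an LPS mouse overlapping with a PBS mouse of its genotype.

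*Slc9a9*, which exchanges sodium for protons in endosomes, had 82, 57, 63.6, 52.5 and 50.4 CPM in wildtype and 61.4, 64.4, 149, 52.1 and 80.4 CPM in KO mice with LPS, against 256 ± 44.9 CPM (SD, n = 4) and 243 ± 28.1 CPM (n = 5) with PBS. The value of KO mouse 3 was the highest among LPS mice for both *Slc9a9* and *Slc2a5*. *Slc22a8*, an organic anion carrier of the choroid plexus and of brain vessels, ranged from 9.23 to 37.7 CPM in wildtype mice with PBS and from 1.01 to 5.79 CPM with LPS. In KO mice it ranged from 15.9 to 35 CPM and from 0.217 to 6.15 CPM. It fell 5.43-fold and 5.41-fold with the largest errors of the 24 genes plotted (SE 0.60 and 0.58 on the log2 scale).

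**Figure D3:**
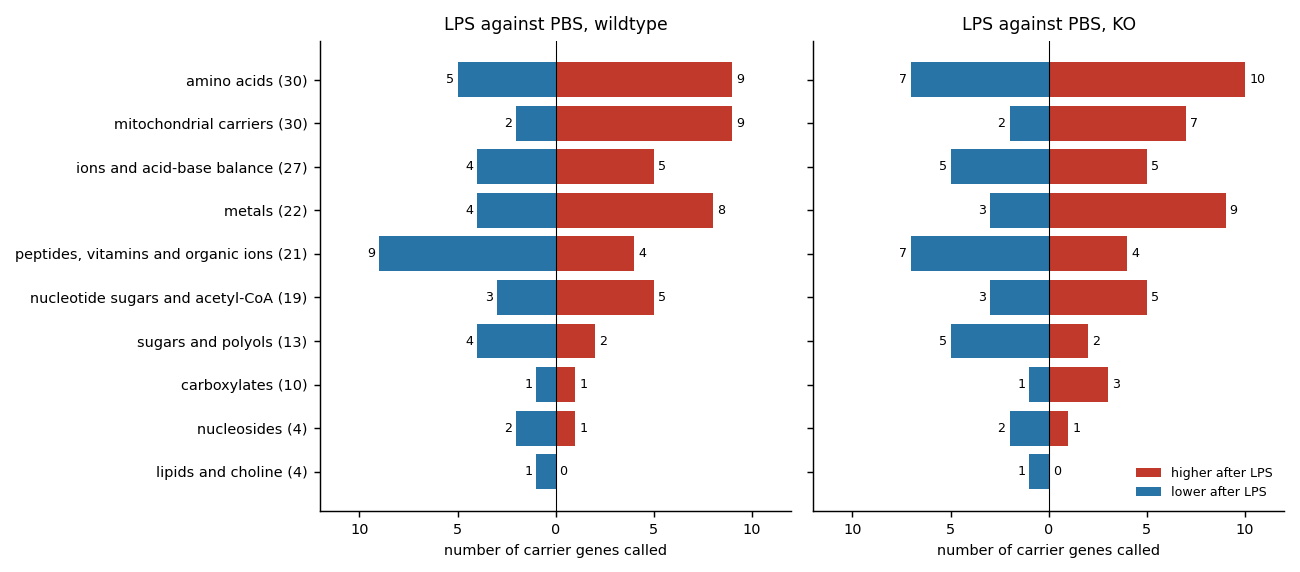
Number of carriers called higher (red, to the right) and lower (blue, to the left) after LPS in wildtype (left panel) and KO mice (right panel), by class, with the number of members in brackets. More metal and mitochondrial carriers were higher than lower, and more carriers of peptides, vitamins and organic ions lower than higher, in both genotypes, where protein-coding genes of at least 10 CPM were higher in 25.2% and 25.9% and lower in 19% and 20.4%.

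By class, metal carriers (22 genes) had 8 rises and 4 falls in wildtype mice and 9 rises and 3 falls in KO mice, with median log2FC of 0.33 and 0.30. Protein-coding genes of at least 10 CPM were higher in 25.2% and 25.9% and lower in 19% and 20.4%. A list of 20 zinc carriers, 19 of them tested, did not hold every gene of the families and left out *Slc39a12*, which is among the 180. On this list rises numbered 6 in wildtype and 8 in KO mice and falls 2 in each, with median log2FC of 0.31 and 0.32, where 18.4% and 20.1% of all genes were higher and 17.4% and 19% lower. The *Slc39* genes move zinc into the cytoplasm, and besides *Slc39a14* the rises among the 180 were *Slc39a1* (138 ± 20.4 CPM to 383 ± 31.5 CPM in wildtype, SD, n = 4 and 5; log2FC 1.47 and 1.58), *Slc39a6* (1.32 and 1.37) and *Slc39a3* (0.59 and 0.56), whereas *Slc39a11* (-0.60 and -0.63) and *Slc39a13* (-0.64 and -0.59) fell. *Slc39a12* had the lowest log2FC of the 11 *Slc39* genes among the 180, -0.98 in wildtype, where it was called lower, and -0.87 in KO mice, where it was not (adjusted p-values 0.047 and 0.057). With the astrocyte and choroid plexus marker sums in the fit it was called lower in both (-1.10 and -0.75), and the KO value of *Slc39a3* (0.40) was under the fold limit. *Slc30* genes move zinc out of the cytoplasm. *Slc30a4* rose in both genotypes (0.53 and 0.80), and *Slc30a1*, the zinc exporter of the cell surface, had log2FC of -0.38 and -0.23 (adjusted p-values 0.18 and 0.38). Both copper carriers, *Slc31a1* (0.91 and 0.54) and *Slc31a2* (above), rose. The KO call of *Slc31a1*, near the fold limit, was lost without PBS mouse 1, 2 or 3. It was also lost without LPS mouse 4, without LPS mouse 5 and without LPS mice 1 and 5 together.

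Of the 30 mitochondrial carriers, 9 rose and 2 fell in wildtype mice and 7 rose and 2 fell in KO mice, with median log2FC of 0.11 and 0.17. Rises made up 25.2% and 25.9% of protein-coding genes of at least 10 CPM and falls 19% and 20.4%. After *Slc25a22* the largest rise was that of *Slc25a25*, an ATP-magnesium and phosphate carrier (48.5 ± 1.68 CPM to 89.7 ± 10.6 CPM in wildtype, SD, n = 4 and 5; log2FC 0.89 and 1.01). *Slc25a5*, the highest carrier per kb, rose 1.45-fold in wildtype and 1.5-fold in KO mice (SE 0.12 and 0.12 on the log2 scale), near the fold limit, and with the marker sums in the fit its KO log2FC was 0.48, under that limit. The rises of the phosphate carrier *Slc25a3* (log2FC 0.57 and 0.45) and of *Slc25a28*, an iron carrier (0.52 and 0.40), were called in wildtype mice only, with unadjusted interaction p-values of 0.39 and 0.56 by edgeR. The falls were those of *Slc25a45* and *Slc25a40*, a carrier of glutathione (-0.80 and -0.91).

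Most listed carriers of the lysosome went the other way. Of 13 listed genes, 11 of them among the 180, 9 were lower and 1 higher in each genotype, with median log2FC of -0.70 and -0.87, where the medians over all genes were -0.06 and -0.01 and 17.4% and 19% of all genes were lower. The falls shared by both genotypes numbered 8, since *Slc49a4* was called in wildtype mice only (-0.60 and -0.44) and *Slc36a1*, an exporter of small amino acids, in KO mice only (-0.32 and -0.67), a call that was lost without KO mice 1 and 5 with LPS. Next to *Slc46a3* the falls among the 180 included *Slc17a5*, which exports sialic acid (37.6 ± 2.91 CPM to 16.2 ± 2.83 CPM in wildtype, SD, n = 4 and 5; log2FC -1.21 and -1.37), *Slc38a9*, an arginine sensor of the mTORC1 pathway (-1.15 and -1.34), *Slc29a3*, which releases nucleosides (-1.01 and -1.25), *Slc48a1*, a heme carrier (-0.78 and -0.87), and *Slc15a4*, of the same family as *Slc15a3* (-0.70 and -0.90). *Slc15a3* was the 1 listed gene that rose. The list does not hold *Slc2a6*, also of the lysosome membrane, which rose by log2FC 3.83 and 3.58. Like the list above, this one was written with earlier results known, and the 7 microglia markers named above were lower in the same comparison.

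Carriers of peptides, vitamins and organic ions (21 genes) had 4 rises and 9 falls in wildtype mice and 4 rises and 7 falls in KO mice, with median log2FC of -0.31 and -0.44. Among protein-coding genes of at least 10 CPM, 25.2% and 25.9% rose and 19% and 20.4% fell. Besides *Slc15a3* the rises were *Slc52a2*, a riboflavin carrier (0.73 and 0.62), *Slc19a2*, which takes up thiamine (0.54 and 0.54), and *Slc49a3* (1.19 and 1.03), 1 of the genes just above the level limit. The folate carrier *Slc46a1* fell, whereas *Slc19a1*, of the family of *Slc19a2*, had log2FC of 0.42 and 0.24 with the marker sums in the fit. Near the fold limit, the wildtype call of *Slc19a2* was lost with genes of low count kept, without PBS mouse 1 and without LPS mouse 4. Its KO call was lost without PBS mouse 2, LPS mouse 4 or LPS mouse 5. The KO call of *Slc52a2* was lost without LPS mice 1 and 5 together.

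Nucleotide sugar and acetyl-CoA carriers (19 genes), which supply the endoplasmic reticulum and Golgi, had the same 5 rises and 3 falls in both genotypes, with median log2FC of 0.10 and 0.06. Beside them, 25.2% and 25.9% of protein-coding genes of at least 10 CPM rose and 19% and 20.4% fell. The largest rise was that of *Slc35e4*, with 8.71, 22.9, 9.72 and 14.8 CPM in wildtype and 13.4, 10.53, 11, 15.3 and 11.3 CPM in KO mice with PBS and 26.2, 43, 35.8, 31.9 and 24.6 and 43.9, 24.2, 28.7, 24.3 and 20.1 CPM after LPS (log2FC 1.20 and 1.20, SE 0.27 and 0.25). The largest fall was that of *Slc35c2* (125 ± 9.11 to 55.3 ± 19.1 CPM in wildtype, SD, n = 4 and 5; log2FC -1.18 and -1.20). *Slc35b1*, which brings ATP into the endoplasmic reticulum, rose by log2FC 0.66 and 0.60, and *Slc35d1*, a carrier of UDP sugars, by 0.78 and 0.78. *Slc35e1*, the member of highest level, had log2FC of 0.48 and 0.46 and no overlap between PBS and LPS mice, yet did not reach the fold limit.

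Carboxylate carriers (10 genes) had 1 rise and 1 fall in wildtype and 3 rises and 1 fall in KO mice. Protein-coding genes of at least 10 CPM rose in 25.2% and 25.9% and fell in 19% and 20.4%. The rises called in KO mice only, *Slc16a1* and *Slc16a13*, were lost with the marker sums in the fit. They were also lost without KO mice 1 and 5 with LPS. *Slc13a3*, which takes up dicarboxylates with sodium, rose in both (30.2 ± 3.58 to 62.7 ± 16 CPM in wildtype, SD, n = 4 and 5, and 26 ± 6.89 to 54.4 ± 11.1 CPM in KO mice, n = 5 each). *Slc16a1*, the widely used lactate carrier, had log2FC of 0.45 (95% interval 0.02 to 0.88) in wildtype and 0.62 (0.22 to 1.03) in KO mice, against the fall of *Slc16a7* described above. All 4 nucleoside carriers belong to 1 family. *Slc29a2* rose, *Slc29a3* fell in both genotypes, and *Slc29a1*, the main nucleoside carrier of the cell surface, had -0.55 and -0.43 and was called in wildtype mice only. Of the 4 lipid and choline carriers *Slc44a2* fell and the others were not called.

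Amino acid carriers (30 genes) had 9 rises and 5 falls in wildtype and 10 rises and 7 falls in KO mice, with median log2FC of 0.04 and 0.14. The rises include *Slc7a6os*, which is no carrier itself. Of protein-coding genes of at least 10 CPM, 25.2% and 25.9% rose and 19% and 20.4% fell. Besides those already described, *Slc66a2* rose (0.79 and 0.59), and *Slc66a1*, which exports cationic amino acids from lysosomes, fell (-0.56 and -0.68). *Slc38a2* was the highest of the class, with 386, 307, 329 and 317 and 283, 273, 324, 332 and 355 CPM with PBS and 592, 586, 618, 552 and 607 and 462, 631, 742, 568 and 1000 CPM with LPS, and no overlap.

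Members of a family did not all move together. The 180 genes fell into 44 families, 33 of them with 2 or more members. At least 1 gene higher and 1 gene lower in both genotypes were found in 12 families. With 42 of the 180 higher and 31 lower in both genotypes, families of many members hold both directions readily. How often other gene families do was not examined. In *Slc2*, the hexose family, *Slc2a6* and *Slc2a3* rose while *Slc2a5*, *Slc2a8* and *Slc2a9* fell. In *Slc7*, the cationic and large neutral amino acid family, *Slc7a1*, *Slc7a5*, *Slc7a6* and the neighbour *Slc7a6os* rose while *Slc7a8*, which like *Slc7a5* carries large neutral amino acids with *Slc3a2*, fell from 408 ± 68.6 to 182 ± 36.7 CPM in wildtype (SD, n = 4 and 5; log2FC -1.16, adjusted p-value 6.0e-06) with a log2FC of -1.12 in KO mice. Per kb of exon *Slc7a5* and *Slc7a8* stood at 47.8 and 44.2 CPM in wildtype mice with PBS, next to each other in the order, and at 156 and 19.7 CPM after LPS. In *Slc38*, small neutral amino acid carriers, *Slc38a2* rose while *Slc38a9* and *Slc38a6* fell, and in *Slc41*, *Slc41a2* rose while *Slc41a3* fell.

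Carriers of ions and of acid or base (27 genes) moved in both directions, with 5 rises and 4 falls in wildtype and 5 and 5 in KO mice. For protein-coding genes of at least 10 CPM the shares were 25.2% and 25.9% for rises and 19% and 20.4% for falls. *Slc20a1*, a phosphate carrier, rose from 67.1 ± 6.4 to 155 ± 16 CPM in wildtype (SD, n = 4 and 5; log2FC 1.21 and 1.63) and *Slc24a3*, a sodium and calcium exchanger that also takes potassium, from 54.6 ± 6.6 to 125 ± 25.2 CPM (1.19 and 1.01). *Slc9a8*, a sodium and proton exchanger of the Golgi, rose (0.64 and 0.77), while *Slc9a7* (-0.83 and -0.93) fell with *Slc9a9*. *Slc8a1*, the sodium and calcium exchanger of the cell surface, fell (-1.18 and -1.11). The potassium and chloride carriers *Slc12a4* (0.84 and 0.59) and *Slc12a7* (0.66 and 0.93) rose. *Slc12a2*, which takes up sodium, potassium and chloride and was among the 10 highest genes, had log2FC of -0.42 and -0.62 (SE 0.30 and 0.28, adjusted p-values 0.28 and 0.079).

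Among the highest carriers, *Slc6a6*, which takes up taurine, fell in both genotypes, with 485, 577, 529 and 544 and 635, 566, 511, 500.4 and 494 CPM with PBS and 377, 281, 268, 315 and 276 and 234, 276, 494, 254 and 283 CPM with LPS (log2FC -0.82 and -0.81). Its groups did not overlap in wildtype mice. KO mouse 3 with LPS reached the lowest KO mouse with PBS, and the other 4 KO mice with LPS lay well below. *Slc44a2*, a choline carrier, fell by log2FC -1.14 and -1.24. *Slc23a2*, which takes up vitamin C, had log2FC of -0.18 (95% interval -0.45 to 0.10) and -0.28 (-0.54 to -0.02), and *Slc16a6*, of the monocarboxylate family, -0.34 (-0.70 to 0.03) and -0.18 (-0.52 to 0.17). Neither was called in either genotype.

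Related carriers that have no *Slc* symbol were counted beside them. Of 26 such genes 5 rose and 9 fell in wildtype mice, where 18.4% of all genes rose and 17.4% fell, and 5 rose and 10 fell in KO mice, where 20.1% rose and 19% fell. In both genotypes 4 rose and 8 fell, the median log2FC of the list was -0.13 and -0.11, and the genes named next were chosen after their values were seen. *Slco2b1*, an organic anion carrier, had log2FC of -1.73 and -1.96, *Npc1*, which exports cholesterol from lysosomes, -1.04 and -1.11, *Ctns*, the lysosomal cystine carrier, -0.88 and -0.96, and *Bsg*, the partner that monocarboxylate carriers need, -0.84 and -0.93. *Ucp2*, a mitochondrial carrier, had 0.78 and 0.80. Others of the list did not fall, such as *Mfsd1* (0.36 and 0.54, called higher in KO mice only). *Spns1* (0.09 and 0.18) and *Mfsd12* (0.28 and -0.01) were called in neither genotype.

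The second question was whether carriers differed between genotypes. At the looser limit used for genotype (unadjusted p-value below 0.05, same fold limit), edgeR called 0 of the 180 with PBS, where 0.8% of all genes tested were called, and 0 after LPS, where 1.31% were. DESeq2 also gave 0 in both. With no fold limit, 0 carriers had an unadjusted p-value under 0.05 with PBS and 2 after LPS, by edgeR and by DESeq2. Of all genes tested, 1.04% with PBS and 2.57% after LPS had one by edgeR. The lowest edgeR adjusted p-value of a carrier was 1 in each, rounded. The 95% interval of the KO against wildtype log2FC lay within 0.5 of 0 for 107 carriers with PBS, for 99 after LPS and for 85 in both, and it reached 0.36 and 0.34 to either side of the estimate in the median. For the remaining carriers a difference of that size was not excluded.

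The 2 genes after LPS were *Slc25a33*, which carries pyrimidine nucleotides into mitochondria, and *Slc30a4*, which moves zinc into vesicles. *Slc25a33* had 15.8, 17.8, 21.9, 23.5 and 20.4 CPM in wildtype and 25.2, 21.8, 21.3, 22.9 and 34 CPM in KO mice (log2FC 0.33, 95% interval 0.02 to 0.65, unadjusted p-value 0.039 by edgeR, adjusted 1). *Slc30a4* had 73.8, 85.8, 94.1, 117 and 102 CPM in wildtype and 101, 109.96, 196, 94.1 and 104 CPM in KO mice (0.36, 0.01 to 0.70, unadjusted p-value 0.042 by edgeR, adjusted 1). In both genes the groups overlapped, and for *Slc30a4* 1 mouse, KO mouse 3, stood far above the others. The fructose carrier *Slc2a5* had the largest estimate after LPS (log2FC 0.59, interval -0.06 to 1.24, unadjusted p-value 0.074 by edgeR). It passed the limit when wildtype mouse 1 with LPS was left out (0.77) or KO mouse 4 with LPS was (0.79), and *Slc9a9* passed with it (0.54 and 0.55). With PBS the largest estimate was that of *Slc29a4* (0.71, interval -0.71 to 2.13), whose level moved with choroid plexus markers, as described below.

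**Figure D4:**
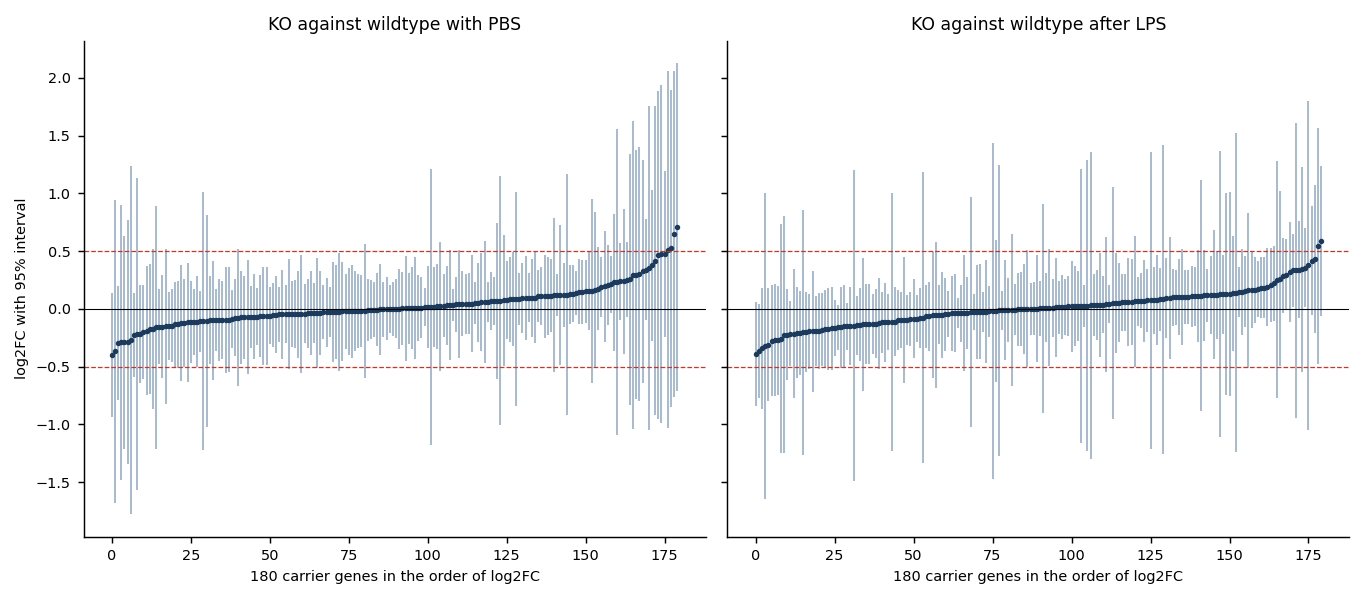
Log2FC of KO against wildtype mice with PBS (left) and after LPS (right) for the 180 carriers, in the order of the log2FC, with 95% intervals as bars and dashed lines at -0.5 and 0.5. Most intervals include 0, and 107 with PBS and 99 after LPS lie wholly between the dashed lines.

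The third question was whether the response to LPS differed between genotypes. The interaction term of edgeR, at an adjusted p-value below 0.05, called none of the 180 carriers and 0.0% of all genes, and DESeq2 also called 0 carriers. By unadjusted p-value under 0.05, where edgeR had 0.961% of all genes, the count was 1 carrier with either tool, *Slc35f5*. Its level was 36.6, 33.8, 37.1 and 37.8 and 34.9, 35.6, 28.7, 32.4 and 31.5 CPM with PBS and 28.1, 31.8, 24.8, 30.9 and 25.2 and 27.2, 30.2, 47.9, 26.2 and 41.5 CPM with LPS, an interaction of 0.45 (95% interval 0.01 to 0.90, unadjusted p-value 0.047, adjusted 1). The interaction interval lay within 0.5 of 0 for 50 carriers, so a difference in response of that size was not excluded for most. Those called in only 1 genotype include *Slc38a3*, a glutamine carrier (log2FC -1.35 and -1.66), and *Slc29a4*, a carrier of monoamines (-0.98 and -1.84), and none of the 15 had an unadjusted interaction p-value under 0.05. With the marker sums in the fit both were called lower in both genotypes (*Slc38a3* -1.26 and -1.48, *Slc29a4* -0.70 and -1.06).

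Some carriers followed the markers of other brain cells from mouse to mouse. The slope of log2 level on the log2 sum of the choroid plexus and the astrocyte markers was estimated with edgeR in a fit with the 4 groups, in which a slope of 1 means a level in proportion to the markers. This fit was added after the marker levels had been seen. Positive choroid plexus slopes at an adjusted p-value under 0.05 were found for 30 carriers (16.7%), beside 10.9% of all genes tested, and positive astrocyte slopes for 27 (15%), beside 14.5%. Negative slopes at the same adjusted p-value were found for 12 carriers on the choroid plexus sum and for 10 on the astrocyte sum. The slope was at least 0.5 on the choroid plexus sum for 15 carriers and on the astrocyte sum for 9, which is 24 carriers in all. The share of all genes with such a slope was not counted, so these counts set no carrier trait apart.

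*Slc13a4*, a sulfate carrier, had the highest choroid plexus slope, 0.99 (SE 0.05). Its level was 13.3, 69.2, 16.8 and 72.5 CPM in wildtype and 37.4, 24.5, 55.8, 80.5 and 108.2 CPM in KO mice with PBS. With LPS it was 9.54, 41.9, 20.2, 47 and 33.9 CPM and 30.8, 15.2, 35.8, 67.5 and 0.866 CPM. The low values belong to the mice with the lowest marker sums, and the lowest of all to KO mouse 5 with LPS. *Slc2a12*, a glucose carrier (slope 0.92, SE 0.05), *Slc29a4* (0.89, 0.07) and the bicarbonate carriers *Slc4a5* (0.87, 0.05) and *Slc4a10* (0.84, 0.04) had the same pattern. On the astrocyte sum the highest slopes were those of the GABA carrier *Slc6a11* (1.20, SE 0.09) and of *Slc4a4*, a bicarbonate carrier (1.05, 0.06).

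Of the 15 carriers with a choroid plexus slope of at least 0.5, 2 were called after LPS in wildtype and 4 in KO mice. Among the 24 genes of largest change only *Slc41a2* (0.53) and *Slc22a8* (0.54) had such a slope, and none had an astrocyte slope of at least 0.5. With both sums in the fit, *Slc41a2* had log2FC of 2.13 and 2.15 and *Slc22a8* of -2.46 and -2.37. That fit called 48 carriers higher and 47 lower after LPS in wildtype mice, against 42 and 47 in KO mice. All 79 carriers called in wildtype without the sums were called with them, as were 75 of the 82 called in KO mice, and none of these changed direction. *Slc16a12* (log2FC -0.70 in wildtype and -0.69 in KO mice) was called lower in both genotypes with the sums and in neither without them.

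**Figure D5:**
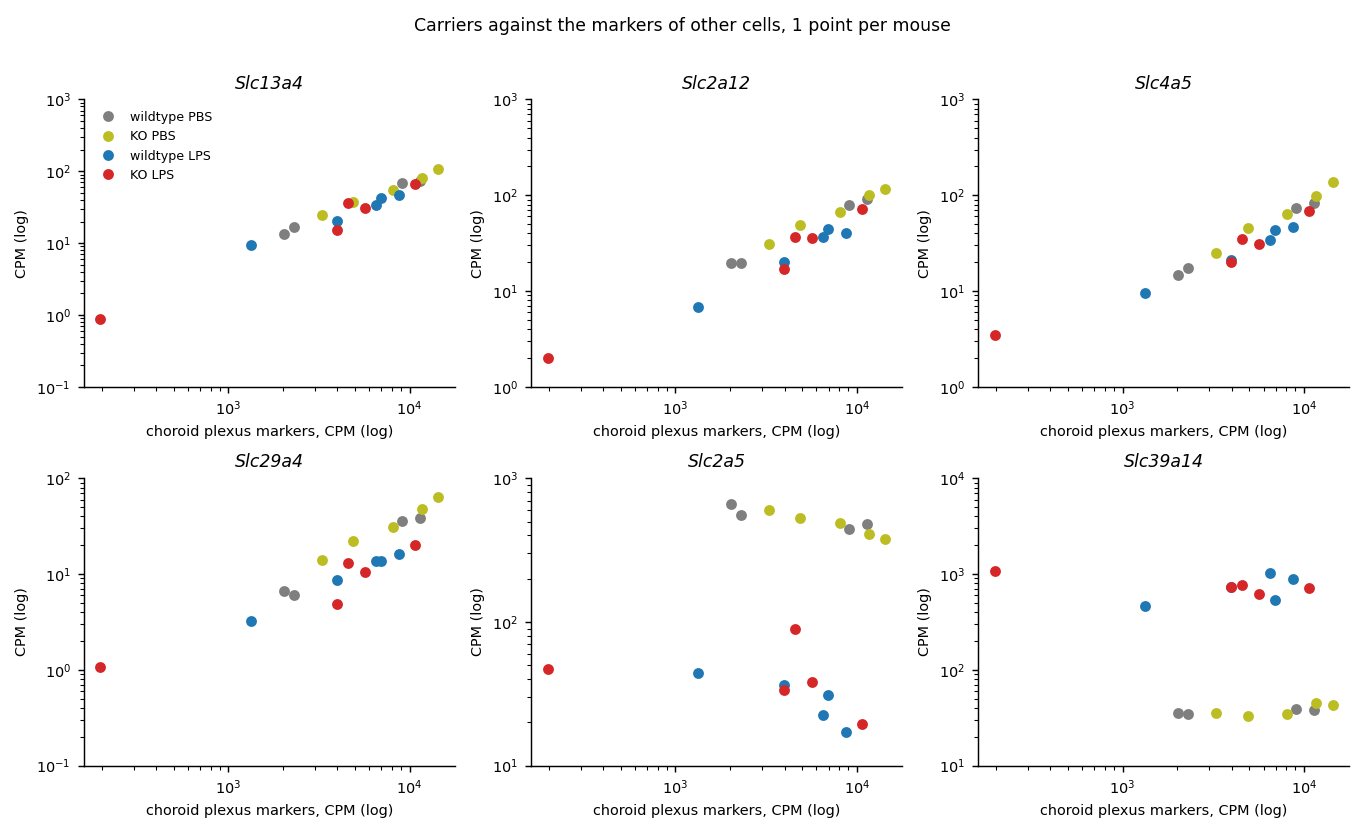
CPM of 6 carriers against the summed CPM of the choroid plexus and ependyma markers, both on log axes, 1 point per mouse, coloured by group. *Slc13a4*, *Slc2a12*, *Slc4a5* and *Slc29a4* rise with the marker sum from KO mouse 5 with LPS (197 CPM of markers) upward, while *Slc2a5* and *Slc39a14* separate by treatment.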

How the data were processed

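RNA of CD11b+ brain cells from 19 mice, 1 library per mouse, was sequenced as stranded total RNA. According to the methods and the processing notes of the submitters, the authors used Cutadapt and STAR 2.7.9a with GRCm39 (Ensembl 108 annotation) to trim, align and count the reads and deposited raw counts per gene. The strand setting of the counting is not given in the sources used here, so it is unknown whether reads of genes with exons on opposite strands were separated. Gene names came from GENCODE mouse release 39, which named 56236 of 56980 genes. Replicates were separate mice, and no pair of libraries of a group differed as little as sampling noise.

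The members, their classes and the gene lists were chosen with earlier results of these data known. All counts were fitted in R 4.3.3 with edgeR 4.0.16 (filterByExpr with a minimum count of 10, TMM, quasi-likelihood test, 1 fit with 4 groups), which kept 18739 genes and all 180 members, and p-values were adjusted by Benjamini-Hochberg over all 18739. LPS effects were called at an adjusted p-value below 0.05 and |log2FC| of at least 0.5, and genotype effects at an unadjusted p-value below 0.05 with the same fold limit. DESeq2 1.42.0 was an alternative. The others were other size factors, no low-count filter, only the groups compared, the replicate number as a block, another member level and each mouse left out. After the marker levels had been seen, a fit with 2 marker sums as covariates and 1 without KO mice 1 and 5 with LPS were added. The fit was tested on simulated data in which 200 genes were changed. No member passed the genotype limit, so the planned permutation test of single genes had nothing to test.

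Genes were named by rule: the 10 of highest level, the 12 largest rises and falls shared by both genotypes, the highest gene of each class, the genes next to the level limit, those with an unadjusted p-value below 0.05 for the interaction, and the listed genes. Other genes named within a class or family, for genotype or for a marker slope were chosen after their values were seen. For the level limit, means over all libraries and the 3 counts below, a CPM value is a count divided by the library's total. Other CPM values divide by the total of the genes tested times the library's TMM factor. With 11936364 to 22788884 counts per library, 3 counts are 0.132 to 0.251 CPM. Intervals of log2FC are 95% intervals from the edgeR fit. Some genes are not reported here by name.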

Additional observations from a re-analysis of the deposited data

Results flagged for a closer look

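In the 24 carriers of largest change, 96 groups of 4 or 5 mice were examined for a mouse far from the others, and 2 had one, where chance gives about 1 in 20. *Slc2a3* in wildtype mice with LPS was highest in mouse 1 at 61.9 CPM, with the others at 45.4 to 49.6 CPM, so that the gap took 0.744 of the group's range. *Slc16a7* in KO mice with PBS was highest in mouse 2 at 127 CPM, with the others at 92.4 to 97.9 CPM, a gap of 0.840 of the range.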

How the results depend on the processing

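All 792 alternatives for the changes of the 24 carriers of largest change kept their direction and their side of the threshold. Of those for 11 other carriers named by level or class, 351 did so, and 12, of *Slc12a2*, *Slc25a5* and *Slc35e1*, kept their direction but crossed the threshold. Over the single settings, 74 to 79 of the 79 carriers called in wildtype and 73 to 82 of the 82 called in KO mice were called again, and none of them changed sign. With the marker sums 7 of the 82 were lost (*Slc25a5*, *Slc39a3*, *Slc25a32*, *Slc7a7*, *Slc16a1*, *Slc16a13* and *Slc4a2*), and without KO mice 1 and 5 with LPS 9 were. Leaving out each mouse in turn gave 44 to 47 rises and 32 to 35 falls in wildtype and 43 to 49 rises and 34 to 40 falls in KO mice. The other settings gave 40 to 51 and 33 to 47 in wildtype and 41 to 54 and 36 to 47 in KO mice. No other setting called a carrier for genotype, but leaving out 1 mouse gave 0 to 2 of the 180 after LPS and 0 to 2 with PBS. After LPS these were *Slc2a5* and *Slc9a9* without wildtype mouse 1 or without KO mouse 4, *Slc9a9* without KO mouse 1 and *Slc36a1* without wildtype mouse 4 or 5. With PBS they were *Slc31a1* without wildtype mouse 4, and *Slc7a5* and *Slc1a4* without KO mouse 1. The cause was not tested. The interaction gave 0 throughout, and 1 carrier (*Slc35f5*) when the p-value was not adjusted. Without KO mice 1 and 5 with LPS, 44 carriers rose and 38 fell in wildtype and 41 and 37 in KO mice, with 0 for genotype and 0 for the interaction. Choosing members by TMM-scaled level gave 179, all among the 180. The labels number mice within groups, and deviations of mice that share a number were not all correlated above 0.1 (-0.57 to 0.58), so the number was not taken as a pairing. With the replicate block 76 carriers were called in wildtype, all of them among the 79, and 80 in KO mice, 79 of them among the 82. With 4 or 5 mice a group, the interval of the genotype difference after LPS lay within 0.5 on the log2 scale for 99 of 180 carriers, and for the rest a difference of that size was not excluded.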
